A study of Mus musculus with 35 samples.

Results

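The large Polycomb domains of wild-type (WT) pre-B cells are broad stretches of chromatin carrying trimethylated lysine 27 of histone H3 (H3K27me3). They were chosen by the length of the WT H3K27me3 peaks: every autosomal peak whose end minus start reached 10000 bp was taken, which gave 1118 domains of 64622 WT autosomal H3K27me3 peaks. The mutant cells were stromal-adherent pre-B cell progenitors of the genotype IKDN CD2 Cre (IKDN). Cre is driven there by the CD2 promoter, which is active in lymphocytes, and the cells carry a dominant-negative form of Ikaros, a zinc-finger regulator of lymphoid development. The comparison cells were stromal-adherent pre-B progenitors of the WT genotype. Both were passaged cultures, at passages 3 to 8. The series has 35 chromatin immunoprecipitation libraries, 33 of them with a peak list (17 IKDN and 16 WT). 1 library stands for each genotype and target, so no difference between genotypes could be set against the spread between cultures, and no test was run. The 95% intervals below are exact Clopper-Pearson intervals over domains and cover counting error only.

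Polycomb repressive complex 2 writes H3K27me3, and the mark is read by Polycomb repressive complex 1. In most cell types the broadest H3K27me3 domains lie over CpG-rich genes for developmental transcription factors that the lineage does not use. H3K27ac marks active enhancers and promoters on the same lysine, so a histone tail cannot carry both marks there. RNA polymerase II phosphorylated on serine 5 (RNAPII) marks initiation, MED1 is a subunit of the Mediator complex, and H3K36me3 is laid down along transcribed gene bodies. H3K4me1 and H3K4me2 lie at enhancers and promoters and H3K4me3 at gene starts.

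A domain is called lost where under 10% of its base pairs lay in an IKDN H3K27me3 peak, partly kept from 10% to under 50%, and kept from 50%. The lists hold peaks rather than signal, so a lost domain is one with few or none of its bases under a called peak. Fewer cells with the mark cannot be told apart from less mark per cell.

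6 promoters show what the domains cover. They run from 250 bases before to 50 after the start, from RefSeq on GRCm38.p6, and are written along the gene's strand with CpG dinucleotides in capitals. Nrgn, Cdh22, Alcam and Lhx2 lie in lost domains, among those with the most H3K27me3 lost or the largest gain of an active mark. Zic1 and Nr2e1 lie in kept domains, among the 10 longest of all. Their positions are chr9:37552696-37552995 (minus strand) for Nrgn, chr2:165234688-165234987 (minus) for Cdh22, chr16:52453032-52453331 (minus) for Alcam, chr2:38339031-38339330 (plus) for Lhx2, chr9:91365719-91366018 (minus) for Zic1 and chr10:42583541-42583840 (minus) for Nr2e1.
Nrgn: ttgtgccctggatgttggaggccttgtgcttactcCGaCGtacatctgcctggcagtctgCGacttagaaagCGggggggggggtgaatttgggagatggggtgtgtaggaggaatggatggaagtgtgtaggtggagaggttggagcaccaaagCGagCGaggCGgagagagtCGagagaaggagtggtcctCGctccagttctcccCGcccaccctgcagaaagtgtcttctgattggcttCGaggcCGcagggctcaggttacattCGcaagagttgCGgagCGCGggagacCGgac
Cdh22: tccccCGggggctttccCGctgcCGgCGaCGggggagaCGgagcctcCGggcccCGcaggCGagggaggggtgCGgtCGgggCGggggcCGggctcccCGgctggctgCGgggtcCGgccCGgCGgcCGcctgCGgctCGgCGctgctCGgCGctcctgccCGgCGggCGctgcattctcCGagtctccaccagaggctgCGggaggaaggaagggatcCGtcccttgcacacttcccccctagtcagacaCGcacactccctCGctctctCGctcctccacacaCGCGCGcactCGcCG
Alcam: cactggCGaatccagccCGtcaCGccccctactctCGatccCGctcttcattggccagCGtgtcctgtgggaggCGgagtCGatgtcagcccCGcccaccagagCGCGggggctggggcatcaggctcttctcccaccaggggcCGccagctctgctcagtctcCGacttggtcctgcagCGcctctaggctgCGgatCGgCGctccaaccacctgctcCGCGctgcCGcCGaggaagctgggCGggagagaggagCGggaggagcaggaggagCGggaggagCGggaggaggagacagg
Lhx2: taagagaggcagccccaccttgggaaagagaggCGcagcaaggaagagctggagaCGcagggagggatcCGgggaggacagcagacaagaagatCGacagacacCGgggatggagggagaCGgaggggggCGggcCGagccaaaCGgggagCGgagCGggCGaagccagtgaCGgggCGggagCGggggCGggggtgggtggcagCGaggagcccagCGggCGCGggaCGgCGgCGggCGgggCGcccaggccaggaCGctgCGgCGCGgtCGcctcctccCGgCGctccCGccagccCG
Zic1: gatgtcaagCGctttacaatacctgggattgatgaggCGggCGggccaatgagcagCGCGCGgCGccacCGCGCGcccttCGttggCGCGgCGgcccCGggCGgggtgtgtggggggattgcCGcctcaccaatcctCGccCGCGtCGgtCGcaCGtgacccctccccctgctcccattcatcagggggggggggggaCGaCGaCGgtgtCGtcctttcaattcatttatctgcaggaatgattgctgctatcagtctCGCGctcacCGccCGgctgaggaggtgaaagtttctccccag
Nr2e1: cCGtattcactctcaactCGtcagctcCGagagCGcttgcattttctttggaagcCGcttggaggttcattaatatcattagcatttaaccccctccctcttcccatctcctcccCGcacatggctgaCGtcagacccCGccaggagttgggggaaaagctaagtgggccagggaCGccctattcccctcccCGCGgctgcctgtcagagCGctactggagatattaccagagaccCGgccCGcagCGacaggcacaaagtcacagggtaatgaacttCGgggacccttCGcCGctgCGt

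All 6 promoters hold more CpG dinucleotides than the median of 14 over all promoters. The Nrgn promoter holds 17, Cdh22 38, Alcam 25, Lhx2 34, Zic1 31 and Nr2e1 19. Medians were 17.5 in lost and 20 in kept domains, so the Nrgn and Nr2e1 promoters lay slightly below those of their classes. A WT H3K27me3 peak covered all 6, and an IKDN H3K27me3 peak covered only the Zic1 and Nr2e1 promoters. No peak of another target lay on the Zic1 and Nr2e1 promoters in the lists compared; for Zic1 these do not include IKDN PAX5 and WT E2A, which are incomplete on chromosome 9. The Nrgn, Cdh22, Alcam and Lhx2 promoters carried H3K4me3 peaks in both genotypes and an RNAPII peak in IKDN cells alone, so in WT cells peaks of H3K4me3 and H3K27me3 lay on them together. H3K27ac lay on all 4 in IKDN cells, and in WT cells on Nrgn and Lhx2. MED1 lay on Cdh22, Alcam and Lhx2 in IKDN cells and on none of the 4 in WT cells. On the Cdh22, Alcam and Lhx2 promoters IKDN cells had no H3K4me1 peak and WT cells had 1 on each. An ETS1 peak lay on the Cdh22, Alcam and Lhx2 promoters in IKDN cells; the WT list could be compared at Alcam only, where it had none.

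The CpG content of promoters was similar in lost and kept domains. The median observed-to-expected CpG ratio was 0.717 over 36 promoters of 26 genes in lost domains, 0.687 over 64 promoters in partly kept domains and 0.702 over 616 in kept domains, against 0.586 over all 20085 promoters. Sequence cores were searched on both strands of these promoter windows. The Ikaros core TGGGAA lay in 19.4% of promoters in lost domains, 23.1% of those in kept domains and 24.1% of all promoters. The TEAD core CATTCC lay in 8.33%, 11.4% and 13.4%, and the E-box CAGGTG in 25%, 21.6% and 20%. TAATTA, a core bound by LIM-homeodomain factors, was in none of the 36 promoters of lost domains, in 3.9% of kept and in 4.48% of all.

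Sequencing depth is not given in the files. The IKDN H3K27me3 list holds 62107 autosomal peaks over 129 Mb and the WT list 64622 over 107 Mb, with the same antibody catalogue entry in the labels, so the IKDN list is the wider. The entry is also the same in both genotypes for H3K27ac, H3K36me3, H3K4me1, H3K4me2, MED1 and RNAPII. The labelled cell type was checked against its markers, over gene bodies and 2500 bp on each side. Of the 10 pre-B markers, H3K27ac peaks lay at 9 in IKDN and all 10 in WT cells (149.6 and 221 kb in sum, Rag1 at 0 in IKDN). H3K27me3 lay at 2 of the 10 in IKDN cells (Rag1 and Rag2) and at none in WT cells. Stromal markers carried 5.63 kb of H3K27ac in IKDN and 13 kb in WT cells (5 and 3 of 8 markers at 0, Dcn and Lum at 0 in both), and 19.8 and 56.7 kb of RNAPII, of which Col1a2 held 8.49 and 36.8 kb. T cell markers carried 10.2 and 10.9 kb (5 and 4 of 8 at 0, Cd3e and Cd3g at 0 in both). Myeloid markers carried 15.3 and 9.36 kb (2 and 2 of 6 at 0, Mpo at 0 in both). Erythroid markers carried 2.89 and 2.24 kb (3 and 3 of 5 at 0). Among the myeloid markers H3K27ac was longer in IKDN cells at Csf1r (4.41 and 0.5 kb) and Cebpa (3.63 and 0 kb). It was shorter there at Lyz2, Itgam and Elane. H3K27me3 covered 9.38 kb of the myeloid markers in IKDN and 18.1 kb in WT cells (4 and 0 of 6 at 0). The part of other cell types in the results was not tested.

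Most of the large domains were still covered in IKDN cells. The 1118 domains span 18.3 Mb with a median length of 13.3 kb and a longest of 206 kb, and 84.1% of their base pairs lay in IKDN H3K27me3 peaks (median per domain 96.9%). The classes hold 71 lost domains (6.35%, interval 4.99 to 7.94), 100 partly kept (8.94%, 7.34 to 10.8) and 947 kept (84.7%, 82.5 to 86.8). No base was kept in 49 domains and every base in 421. These shares use the same mark that chose the domains, so they are a description.

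Coverage in IKDN cells went with the length of the WT peak. Of base pairs in WT peaks under 2 kb 33.8% were covered, from 2 to 5 kb 55.1%, from 5 to 10 kb 69.1%, from 10 to 20 kb 79.7%, from 20 to 50 kb 92% and from 50 kb 94.5%. All 10 peaks of 50 kb and over were kept, and 2 of the 201 from 20 to 50 kb were lost. In the other direction the IKDN list has 1869 peaks of at least 10 kb, of whose base pairs 65.1% were covered in WT cells and of which 219 were lost there. At the length threshold, the 3 shortest domains lay near Zfp941 (10001 bp, 76.6% kept), Gpr89 (10001 bp, 84.6%) and 1700018A04Rik (10002 bp, 88.9%). The 3 peaks just under it lay near Adamtsl5 (9994 bp, 87% kept), Gucy2e (9993 bp, 0%) and Plekhh3 (9992 bp, 0%).

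**Figure D1:**
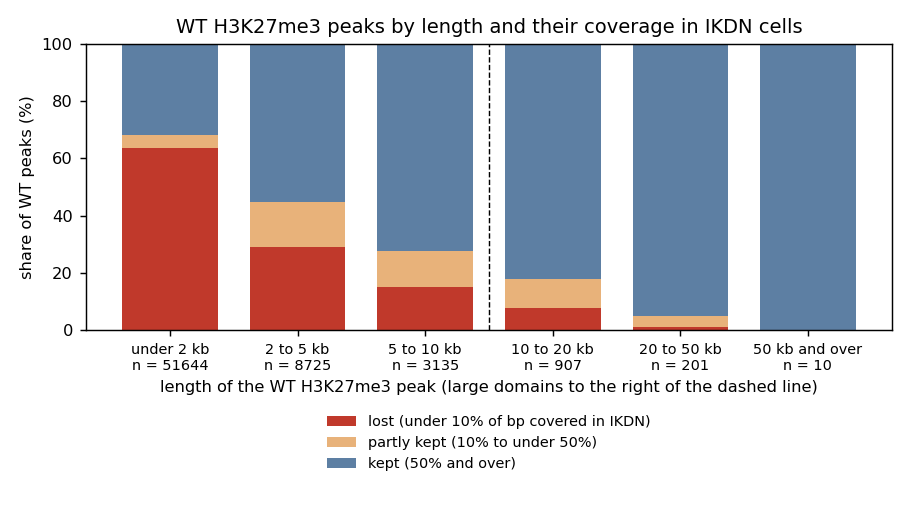
Share of WT H3K27me3 autosomal peaks (y axis, %) that were lost, partly kept or kept in IKDN cells, by length of the WT peak (x axis, with the number of peaks). The lost share is 63.8% under 2 kb, 7.61% from 10 to 20 kb and 0 of 10 peaks from 50 kb.

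A protein-coding gene started in 735 of the 1118 domains, and 840 of 20288 genes (4.14%) had a start in one. Of those 840 genes 731 started in kept domains, 73 in partly kept and 36 in lost ones. Of 38 Hox genes with a known start, which give segments along the body axis their identity, 37 started in a large domain, 36 of them in kept domains and only Hoxb4 in a lost one. A class belongs to the whole domain, so a gene in a kept domain can lack the mark at its own start. Hoxb5, Hoxb6 and Hoxb7 started in a domain 58.9% kept. Within 2500 bp of their starts H3K27me3 covered only 0 to 0.5 kb in IKDN cells, against 5 kb in WT. The longest domain of all, at chr15:102903422-103109427, spans 206 kb of the HoxC cluster and was 100% kept. The HoxD domain (128 kb, with Evx2) was 100% kept and the main HoxA domain (83 kb) 98.9%. Of 92 homeobox genes outside the clusters 80 were in domains, 78 of them kept. The exceptions were Lhx2, a LIM-homeodomain factor of forebrain, eye and hair follicle, in a lost domain, and Pax8, a factor of thyroid and kidney, in a partly kept one. Tlx1 (47.8 kb), Pax2 (47.4 kb) and Pax6 (37 kb), which act in spleen, kidney and eye development, were 100% kept.

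A further list held Sox, Fox, Gata, T-box, basic helix-loop-helix and other developmental factors, including Zic and Tfap2 genes and Gli1. Of its genes 56 of 86 started in domains, 55 in kept ones and Gli1, a Hedgehog effector, in a partly kept one. Zic1 and Zic4 shared a domain of 61.8 kb, 100% kept, and Gata4, a heart and gut factor, had 48.6 kb, 100% kept. Of 36 regulators of other blood lineages and stem cells 6 started in a domain (16.7%, against 4.14% of all protein-coding genes). All 6 were in kept domains, as were 731 of the 840 genes that started in any large domain. Among them Mecom, a stem cell factor, was 95.8% kept, Gata2, a factor of stem cells and mast cells, 99.7%, and Tal1, a basic helix-loop-helix factor of blood formation, 100%. Of 100 signalling ligands and receptors 29 were in domains, with Efna5 lost, Erbb3, Fgf11 and Pdgfa partly kept and 25 kept. Of 69 cadherin, junction, polarity and matrix genes 9 were in domains, with Cdh22 lost and 8 kept, among them the tight-junction scaffold gene Tjp1 and the desmoplakin gene Dsp. Integrin, focal adhesion and cytoskeleton genes had 4 of 50 in domains (8%, Tpm2 partly kept) and the Hippo pathway list 1 of 29 (3.45%), Yap1. None of 28 pre-B and B lineage genes and none of 18 housekeeping genes started in a large domain. Over all protein-coding genes the share was 4.14%. In lists this short, counts of 0 or 1 are near that share. Of the T cell markers Cd4 was in a lost domain and Gata3 in a kept one, and of the stromal markers Pdgfra, Prrx1 and Twist1 were in domains kept at 100%.

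On domain bases without H3K27me3 in IKDN cells, all 7 active marks covered more in IKDN than in WT cells. On the bases that kept it, the ratio of IKDN to WT length was lower for each mark, though only slightly so for MED1. The domains were split base by base into 2903 kb with no IKDN H3K27me3 peak and 15390.3 kb with one. On the lost bases H3K27ac covered 336 kb in IKDN and 127 kb in WT cells, a ratio of 2.64, while on the kept bases it covered 213 and 212 kb, a ratio of 1.01. RNAPII covered 281 kb in IKDN and 62.9 kb in WT cells on the lost bases (ratio 4.46), against 156 and 149 kb on the kept ones (1.05). The sharpest contrast was in H3K36me3. It covered 122 kb of the lost bases in IKDN and 4.8 kb in WT cells (ratio 25.4), and 34.3 and 84 kb of the kept bases (0.409). H3K4me1 had ratios of 1.53 on lost and 0.992 on kept bases, and H3K4me2 1.35 and 1.03. Over all autosomes the covered percentages were near equal for H3K27ac (3% of bases in IKDN, 2.85% in WT) and H3K4me2 (3.51% in both), and lower in IKDN for RNAPII (3.99% and 4.74%). They were higher in IKDN for H3K36me3 (8.2% and 6.45%) and H3K4me1 (4.12% and 3.82%).

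MED1 covered 199 kb of lost bases in IKDN and 17.8 kb in WT cells (ratio 11.2), and 239.8 and 21.9 kb of kept bases, with nearly the same ratio of 11. Its IKDN list is wider throughout, with 1.17% of autosomal bases in IKDN and 0.399% in WT. H3K4me3 covered nearly the same length of lost bases in both genotypes (246 and 228 kb) but less of the kept ones in IKDN cells (716 kb, against 1153 kb in WT). The labels give different antibody catalogue entries for H3K4me3 in the 2 genotypes, and the IKDN entry is that of H3K4me1. In the domains of the stromal markers H3K4me3 covered 0 kb in IKDN and 5.14 kb in WT cells at Prrx1, 0 and 5.7 kb at Pdgfra, and 0.5 and 3.75 kb at Twist1, and stromal markers as a whole had less H3K27ac and RNAPII in IKDN cells. Shorter H3K4me3 was not particular to stromal genes. It covered 0 and 5.94 kb in the domain of Dlx5 and Dlx6, 0 and 3.73 kb at Pax6, and 1.76 and 8.52 kb in the main HoxA domain. By the rule given below, H3K4me3 was lower in IKDN in 154 of 947 kept domains and gained in 15. The part of the antibody and of stromal cells in the H3K4me3 values was not tested.

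**Figure D2:**
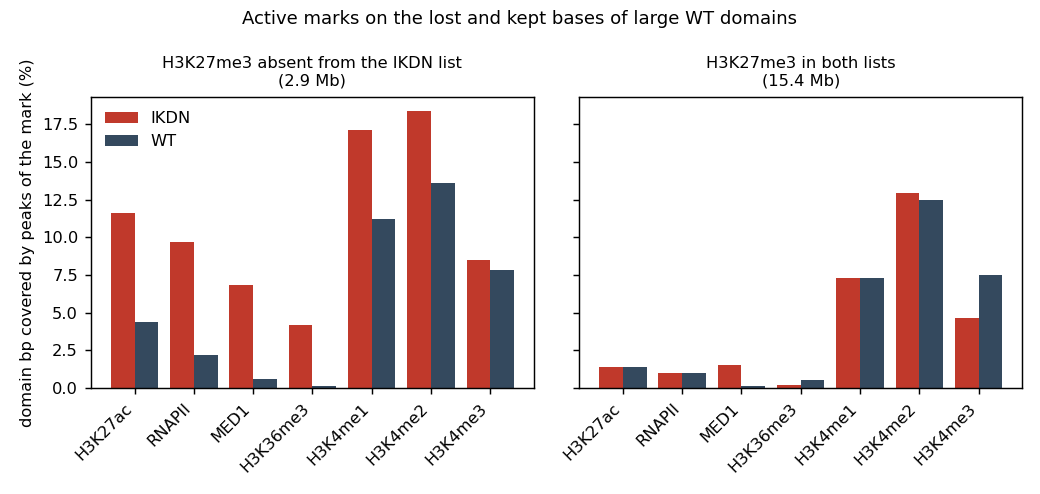
Percentage of domain bases covered by peaks of each active mark (y axis) in IKDN cells (red) and WT cells (dark blue), for the lost bases (left) and the kept bases (right). On lost bases H3K27ac covers 11.6% in IKDN and 4.38% in WT, and on kept bases 1.39% and 1.38%.

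Counted by domain, gains were most frequent where H3K27me3 was lost. A mark was called gained with at least 1000 bp more covered length in IKDN than in WT and at least 1.5 times the WT length, a threshold and not a test. The same rule was applied to 246063 windows of 10 kb over the autosomes as a background. H3K27ac was gained in 31 of 71 lost domains (43.7%, interval 31.9 to 56), 29 of 100 partly kept (29%, 20.4 to 38.9) and 27 of 947 kept (2.85%, 1.89 to 4.12), where 2.97% of windows were called. RNAPII was gained in 39.4%, 24% and 2.22% of the 3 classes, with 3.22% of windows. H3K36me3 was gained in 16.9%, 9% and 0.95%, with 4.86% of windows, and MED1 in 42.3%, 34% and 7.07%, with 2.78%. Kept domains thus lay near or under the background for H3K27ac, RNAPII and H3K36me3, and above it for MED1. The domains are 10 kb or longer (median 13.5 kb for kept ones) and the windows 10 kb, so the shares are not over equal lengths. Where a peak in IKDN with none in WT was asked for, H3K27ac was gained in 21.1% of lost domains. With 500 bp more and 2 times the WT length, H3K36me3 was gained in 28.2%.

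H3K4me1 was gained in 40.8% of lost, 17% of partly kept and 10.8% of kept domains (windows 3.93%), and H3K4me2 in 31%, 22% and 9.82% (windows 2.32%). H3K4me3 was gained in 8.45%, 6% and 1.58% (windows 0.26%). Where a peak in IKDN with none in WT was asked for, the shares of lost domains were 19.7% for H3K4me1, 11.3% for H3K4me2 and 2.82% for H3K4me3, and with 500 bp more and 2 times the WT length H3K4me2 had 18.3%. H3K4me3 was lower in IKDN, by the same rule turned round, in 0 of 71 lost and 2 of 100 partly kept domains. H3K4me3 was also lower in 154 of 947 kept domains (16.3%), where 0.537% of windows were called. Only a region with WT H3K4me3 can be called lower. A WT H3K4me3 peak lay in 527 of the 947 kept domains (55.6%), while WT H3K4me3 covered 1.37% of autosomal bases, so the 2 shares are not over like regions. No lost domain was called lower for H3K27ac, H3K4me2, H3K36me3, RNAPII or MED1, and 2 were for H3K4me1.

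The gains followed the share of the domain kept in steps. H3K27ac was gained in 43.7% of domains kept under 10%, 35.6% from 10 to 25%, 23.6% from 25 to 50%, 14.5% from 50 to 75%, 1.31% from 75 to 90% and 1.83% from 90%. RNAPII ran 39.4%, 28.9%, 20%, 13.3%, 1.96% and 0.985% over the same steps. The intervals of neighbouring steps overlap up to 75% kept, while those under and over 75% do not for H3K27ac (7.7 to 23.9 against 0.159 to 4.64).

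**Figure D3:**
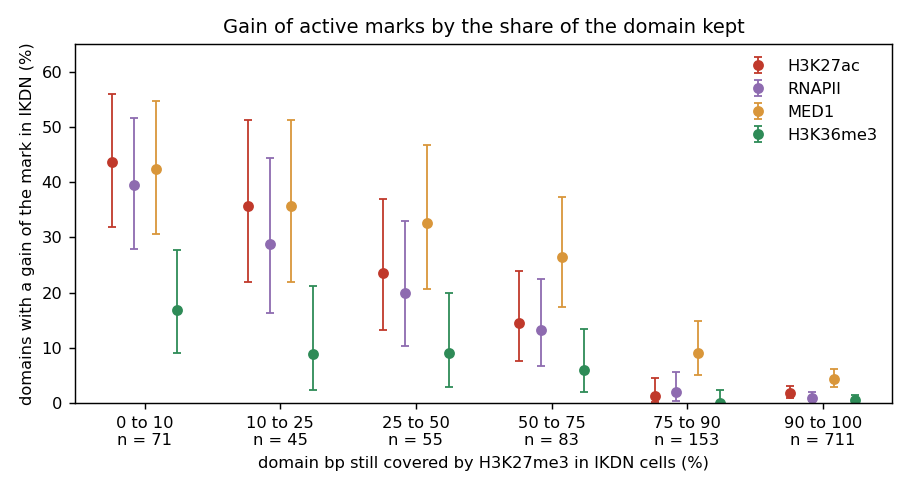
Percentage of large WT domains called gained in IKDN cells (y axis) for 4 active marks, by the percentage of the domain still covered by H3K27me3 in IKDN cells (x axis, with the number of domains). Points are shares and bars exact 95% intervals; H3K27ac is gained in 43.7% of domains kept under 10% and in 1.83% of those kept at 90% and over.

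The longest lost domain, chr9:37545456-37588261 (42.8 kb), holds the start of Nrgn, the gene for the postsynaptic calmodulin-binding protein neurogranin. H3K27me3 covered 0 kb of it in IKDN and 42.8 kb in WT cells. H3K27ac covered 19.6 kb in IKDN and 7.21 kb in WT, RNAPII 18.2 and 0 kb, MED1 6.58 and 0.5 kb, and H3K36me3 5.99 and 1.22 kb. H3K4me1 lay over 27.4 and 23.1 kb, so H3K4me1 was near equal in length in both genotypes. It is also the domain with the most LHX2, LMO2 and TEAD1 peaks in IKDN cells among lost domains, with 6, 4 and 5, and no TEAD1 peak in WT cells.

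Cdh22 and Alcam were among the 10 lost domains with the largest gains of H3K27ac. At Cdh22, a cadherin (chr2:165230511-165243630, 13.1 kb), H3K27ac covered 10.8 kb in IKDN and 0 in WT cells, RNAPII 12.6 and 0 kb, and MED1 4.71 and 0 kb. H3K27ac and RNAPII thus covered most of the former domain. At Alcam, an immunoglobulin-type adhesion molecule (chr16:52447913-52458031, 10.1 kb, annotated promoter-TSS), H3K27ac covered 4.83 and 0 kb and RNAPII 2.94 and 0 kb. Efna5, an ephrin ligand of axon guidance, had 4.42 kb of H3K27ac in IKDN and 0.922 kb in WT, and 4.41 and 0 kb of RNAPII. H3K4me3 was already present at Alcam in WT cells, with 5.28 kb in IKDN and 4.44 kb in WT.

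Other large gains were at genes of varied roles. Bend6, a BEN-domain corepressor of Notch target genes (chr1:33902403-33912987), had 6.94 kb of H3K27ac in IKDN and 0.5 kb in WT, and 4.03 and 0 kb of RNAPII. Stra6, the receptor for retinol-binding protein (chr9:58128892-58140646, annotated 5′ UTR), had 4.97 and 0 kb of H3K27ac and 5.53 and 0 kb of RNAPII. H3K4me1 covered 9.15 kb of it in IKDN and 0 in WT cells. Lrp4, a co-receptor at the neuromuscular synapse, had 4.55 and 0.972 kb of H3K27ac. An intron of Pax7 (chr4:139761462-139773387), with no start inside, had 5.08 and 0 kb of H3K27ac but only 0.5 and 0 kb of RNAPII. The remaining domains of the 10 with the largest H3K27ac gains lay near Rgs10, Grid1 and Pop5, with no start inside and 4.05 to 4.8 kb in IKDN against 0 to 1.03 kb in WT.

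**Figure D4:**
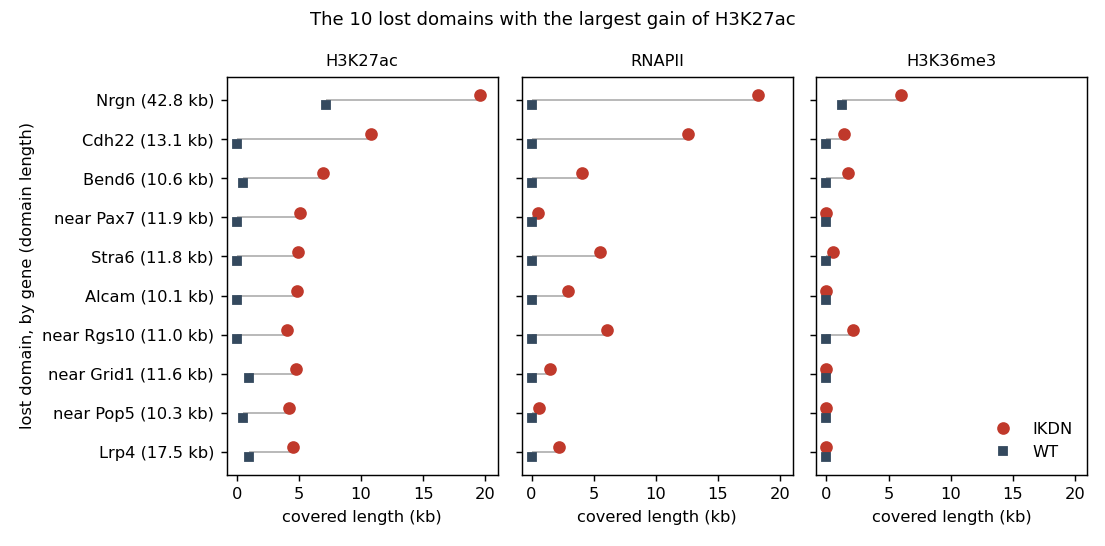
Covered length (x axis, kb) of H3K27ac, RNAPII and H3K36me3 in IKDN cells (red circles) and WT cells (dark blue squares) for the 10 lost domains with the largest gain of H3K27ac (y axis, named by the gene starting in them or the nearest one, with the domain length). RNAPII is at 0 in WT cells in all 10.

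Transcribed-body marks named a partly different set. The largest H3K36me3 gain was in an intron near the Lhfp gene (chr3:53066970-53084289), with 9.25 kb in IKDN and 0 in WT cells and 0.633 and 0 kb of H3K27ac. At Lhx2 (chr2:38334859-38350464, 15.6 kb) H3K36me3 covered 8 and 0 kb and RNAPII 6.02 and 1 kb, while H3K27ac was near equal (5.41 and 4.45 kb) and H3K4me3 too (3.75 and 4.04 kb). Lhx2 had 2 LHX2 peaks inside its own domain in IKDN cells. Sulf2, which removes sulfate groups from extracellular heparan sulfate, had 5.35 and 0 kb of H3K36me3 and 7.93 and 0 kb of RNAPII. Hap1, a huntingtin-associated protein, had 4.02 and 0.118 kb. Fzd4, a Wnt receptor, shared its domain with Tmem135 and had 3.29 and 0 kb of H3K36me3 and 2.74 and 0.776 kb of H3K27ac. At Cd4, a T cell co-receptor, the domain was lost with 0.651 and 0 kb of H3K27ac and no RNAPII in either genotype. The domain covers only part of the gene. Over the Cd4 body and 2500 bp on each side, H3K27ac covered 3.71 kb in IKDN and 0.962 kb in WT cells. RNAPII covered 1.44 and 0 kb there, and H3K27me3 0 and 20.1 kb.

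Loss of H3K27me3 without any active peak was also seen. Of the 71 lost domains 26 (36.6%, 25.5 to 48.9) gained none of the 7 active marks, and 13 had no peak of any of them in IKDN cells, 12 of these with none in WT cells either. All 13 lacked a gene start. The lost domains without a start numbered 37 and gained H3K27ac in 10 cases (27%, 13.8 to 44.1), and the 34 with a start gained it in 21 (61.8%, 43.6 to 77.8). In partly kept domains the shares were 4 of 42 without and 25 of 58 with a start. 3 lost domains lay nearest to Gc, the vitamin D-binding protein gene, at 12.1 to 19.2 kb in length, with no H3K27ac, RNAPII or H3K36me3 in either genotype; 1 of them had 1.51 kb of H3K4me1 in IKDN and 0.78 kb in WT cells. In all, 17 of the 71 lost domains had another lost domain within 500 kb.

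The HoxB cluster was the exception among the Hox clusters. Its largest domain (chr11:96245724-96310746, 65 kb, holding the starts of Hoxb5 to Hoxb9) was 58.9% kept. RNAPII covered 20.8 kb of it in IKDN and 0 in WT cells, H3K36me3 11 and 0 kb, H3K27ac 10.4 and 0.635 kb, and MED1 4.93 and 0 kb. The adjoining Hoxb4 domain (11.3 kb) was lost, with 3.34 and 1.39 kb of RNAPII. Within 2500 bp on each side of the starts, H3K27me3 covered 5 kb in IKDN and 5 kb in WT cells at Hoxb13, Hoxb9 and Hoxb1, and 4.78 and 5 kb at Hoxb2. It covered 0 in IKDN and 5 kb in WT cells at Hoxb7, Hoxb5 and Hoxb4, and 0.5 and 5 kb at Hoxb6. The boundary fell at Hoxb8 (4.08 and 5 kb), and Hoxb3 had 0 and 2.37 kb. RNAPII lay within that distance of 6 of 10 HoxB starts in IKDN and 1 in WT cells, and of 2 of 11 HoxA starts in IKDN and 1 in WT cells. It lay at 0 of 8 HoxC and 0 of 9 HoxD starts in both genotypes. H3K27ac covered 0 kb of the HoxC, HoxD and main HoxA domains in both genotypes.

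**Figure D5:**
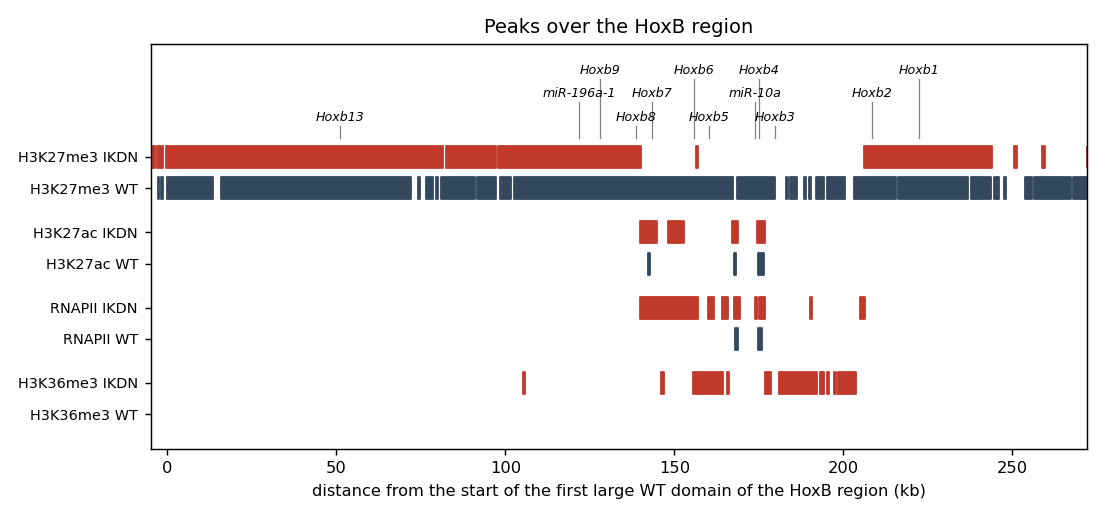
Peaks of H3K27me3, H3K27ac, RNAPII and H3K36me3 over the HoxB region, each mark with IKDN cells (red) above WT cells (dark blue), by distance from the start of its first large WT domain (x axis, kb); ticks mark gene starts and microRNA hairpins. In IKDN cells H3K27me3 is broken off between Hoxb8 and Hoxb2, where RNAPII, H3K27ac and H3K36me3 peaks lie.

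MicroRNAs of the Hox clusters fell on both sides of that boundary. They are shown because members of 1 seed family lie in domains of different fate; capitals mark the seed, bases 2 to 8 from the 5′ end, and the sequences are from RefSeq.
miR-10a-5p: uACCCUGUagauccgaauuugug
miR-10b-5p: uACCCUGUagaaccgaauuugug
miR-196a-5p: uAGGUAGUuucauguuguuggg
miR-196b-5p: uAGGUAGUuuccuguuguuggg

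miR-10a and miR-10b share the seed ACCCUGU and differ by U12A, with miR-10a's base first and positions counted from the 5′ end. The Mir10a hairpin (chr11:96317165-96317274) lies in the lost Hoxb4 domain, with 0 kb of H3K27me3 in IKDN and 5.11 kb in WT cells within 2500 bp, and 1.93 and 1.07 kb of RNAPII. The Mir10b hairpin (chr2:74726070-74726137) lies in the HoxD domain, with 5.07 kb in both genotypes and no RNAPII. miR-196a and miR-196b share the seed AGGUAGU and differ by A12C. Mir196a-1 lies in the part of the HoxB domain that stayed covered (5.1 kb in both genotypes), Mir196a-2 in the HoxC domain (5.08 kb in both) and Mir196b in the HoxA domain (5.08 kb in both). Of 919 autosomal hairpins 34 lay in large domains, 27 in kept, 6 in partly kept and 1, Mir10a, in a lost one. The brain microRNA genes Mir9-1, Mir9-2 and Mir9-3 were in domains kept at 99.7% to 100%.

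Some kept domains took on active marks as well, while others had less of them by the same rule turned round. Of the 947 kept domains, H3K27ac was gained in 27 and lower in 31, and RNAPII gained in 21 and lower in 23. H3K36me3 was gained in 9 and lower in 31, and H3K4me1 gained in 102 and lower in 99. H3K4me2 was gained in 93 and lower in 56, and MED1 gained in 67 and lower in 1. At Emx2, a forebrain and urogenital homeobox gene (chr19:59445400-59474771, 29.4 kb, 98.8% kept), RNAPII covered 16.5 kb in IKDN and 0 in WT cells, H3K36me3 9.75 and 0.5 kb, and H3K27ac 7.3 and 2.51 kb. Peaks of H3K27me3 and of these marks thus lay on the same bases of the IKDN lists. Whether they shared cells was not tested. Wnt10a, a Wnt ligand (37 kb, 77.3% kept), had 7.37 and 1.49 kb of H3K27ac and 5.68 and 0 kb of RNAPII. Yap1, the co-activator of TEAD factors (17.7 kb, 65.4% kept), had 2.43 and 1.47 kb of H3K27ac, 2.16 and 0 kb of RNAPII and 3.15 and 0 kb of H3K36me3. At Igf2bp3 (54.8% kept) H3K27ac was the shorter in IKDN cells, 7.77 and 9.21 kb.

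New peaks of ETS1, IRF4 and E2A in IKDN cells were more frequent in lost domains than in kept ones by intervals that do not overlap, while the intervals for TEAD1, PAX5 and EBF1 overlap. Factor peaks are narrow, so a new peak is counted where a domain held a peak in IKDN cells and none in WT. The labels give IRF4, PAX5 and IKDN E2A 1 catalogue entry, and IKDN ETS1, IKDN LHX2 and WT E2A another, so the identity of these libraries rests on their titles. The entries for E2A and ETS1 differ between the genotypes. New ETS1 peaks lay in 41.9% of lost (26 of 62, 29.5 to 55.2), 28.1% of partly kept and 19.2% of kept domains (16.6 to 22.1), where 4.9% of windows were called. New IRF4 peaks lay in 40.8% (29 of 71, 29.3 to 53.2), 40% and 16.8% (14.5 to 19.3; windows 5.14%). New TEAD1 peaks lay in 33.8% (24 of 71, 23 to 46), 30% and 20.9% (18.4 to 23.6; windows 8.26%). New PAX5 peaks lay in 22.4% (15 of 67, 13.1 to 34.2), 10.8% and 12.8% (10.7 to 15.2; windows 7.08%). New E2A peaks lay in 21.2% (7 of 33, 8.98 to 38.9), 6.78% and 2.84% (1.56 to 4.72; windows 1.66%), and new EBF1 peaks in 11.3% (8 of 71, 4.99 to 21), 17% and 9.61% (7.81 to 11.7; windows 4.43%). A domain is longer than a window, and IKDN lists of ETS1, IRF4, TEAD1 and EBF1 are the longer ones, for example 29077 IKDN and 17550 WT autosomal IRF4 peaks. With equal numbers of peaks in both lists, new IRF4 peaks lay in 23.9% of lost (14.6 to 35.5) and 6.65% of kept domains (5.15 to 8.43), new ETS1 peaks in 30.6% (19.6 to 43.7) and 6.97% (5.34 to 8.89), new TEAD1 peaks in 31% (20.5 to 43.1) and 11.4% (9.45 to 13.6), new PAX5 peaks in 22.4% (13.1 to 34.2) and 8.97% (7.18 to 11), and new EBF1 peaks in 9.86% (4.06 to 19.3) and 6.34% (4.87 to 8.08). At equal numbers the intervals overlap for EBF1 alone of these 5 factors.

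LHX2 and LMO2 were mapped in IKDN cells only. LHX2, the LIM-homeodomain factor whose own gene lost its domain, had a peak in 34 of 71 lost domains (47.9%, 35.9 to 60.1), 37% of partly kept and 21.9% of kept ones (19.3 to 24.6), with 8.55% of windows. LMO2, a LIM-only adaptor of blood progenitor complexes, had one in 22 of 71 (31%, 20.5 to 43.1), 18% and 6.97% (5.43 to 8.78), with 5.28% of windows. After Nrgn, the lost domains with the most LHX2, LMO2 and TEAD1 peaks were those of H2bu2 (a histone gene) and near Wapal, with 7 each, and those of Cdh22, Fosl2 and near Rgs10, with 6 each.

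The classes were also compared by their state in WT cells. Ikaros, mapped in WT cells only, had a peak in 45.1% of lost (33.2 to 57.3), 41% of partly kept and 30.5% of kept domains (27.6 to 33.6), where 12.6% of windows had one. The intervals of lost and kept domains overlap slightly. Of 247 domains with WT H3K27ac 35 were lost (14.2%, 10.1 to 19.2), and of 871 without it 36 (4.13%, 2.91 to 5.68). With both WT Ikaros and WT H3K27ac, 27 of 161 were lost (16.8%), and with WT H3K27ac alone 8 of 86 (9.3%, 4.1 to 17.5). With WT Ikaros alone 5 of 201 were lost (2.49%, 0.813 to 5.71), and with neither 31 of 670 (4.63%, 3.17 to 6.5). The intervals with and without Ikaros overlap in both pairs, so the order by Ikaros is not resolved by these counts once WT H3K27ac is held fixed. WT H3K4me3 was about as common in the classes: 50.7% of lost, 60% of partly kept and 55.6% of kept domains.

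Lost domains had lower WT peak scores for their length. The WT H3K27me3 score per kb, on the authors' scale, had a median of 21.7 in lost, 23.5 in partly kept and 30.1 in kept domains. In 4 bins of about equal size by WT score per kb, from low to high, 32 of 280, 24 of 279, 13 of 279 and 2 of 280 domains were lost. Lost domains were thus most frequent at low WT scores. H3K27ac was gained in 6 of the 32 lost domains of the lowest bin and in 15 of 24, 9 of 13 and 1 of 2 in the others. In kept domains of the same bins it was gained in 3 of 212, 0 of 219, 8 of 245 and 16 of 271. The part of the WT signal strength in the losses was not tested beyond these counts.

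Chromosome 18 stood apart. Its H3K27me3 covered length was 0.672 times as long in IKDN as in WT, against 0.872 on chromosome 10 and 1.09 to 1.46 on the other autosomes. There 66.2% of domain base pairs were kept and 4 of 49 domains lost, against 78.7% to 90.6% kept on the other autosomes. H3K27ac covered length there was 1.06 times as long in IKDN as in WT, within the 0.961 to 1.15 of the other autosomes, so the shorter H3K27me3 was not matched by a shorter H3K27ac. Without chromosome 18 the domains were 84.8% kept and 67 of 1069 lost.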

How the data were processed

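Chromatin immunoprecipitation peaks of 33 libraries were read as the authors deposited them. Per the file headers each row gives a peak's position, a score, the distance to the nearest start and an annotation. Software named in the submitters' processing notes comprises HOMER, STAR, BWA and bcl2fastq 1.8.3, with no stated order, and both the mm10 and mm9 builds; the positions match mm10 (GRCm38). The deposited score has no stated scale and was used only within a list. Read depth is not given in the files.

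Peaks on the 19 autosomes were used. Lengths are end minus start, and covered lengths count bases under merged peaks. The WT E2A list is complete on 11 autosomes, the WT ETS1 list on 18 and the IKDN PAX5 list on 18, and those targets were compared there only. Gene starts came from the RefSeq promoter table for 16457 genes and from the deposited distances for 3831; of deposited starts 97.1% lay within 1000 bp of a table start. A gene counted where its start lay in the domain. Factor peaks counted by their centre.

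The members and lists were chosen with earlier results of these data known. Named genes start in the 10 longest domains, in the 10 lost domains with most bp lost or with the largest H3K27ac gain, in the 5 lost domains with the largest H3K36me3 gain or most LHX2, LMO2 and TEAD1 peaks, in the 5 longest kept domains or those with most IKDN H3K27ac, or belong to the gene lists, up to 8 per list by bp lost and by bp kept. Other genes, and the microRNAs, were named after their values were seen. Thresholds, lengths, list cuts and gene rules were varied as given in the closing section. Python 3.11.15, numpy 2.4.6, pandas 2.3.3, scipy 1.17.1 and matplotlib 3.10.9 were used, and the interval functions were tested on simulated peaks. Some items are not reported here.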

Additional observations from a re-analysis of the deposited data

How the results depend on the processing

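Each genotype and target has 1 library, so no library could be left out. No paired analysis was possible because each genotype and target has 1 library. The number of large domains was 1118, and it was 4253 from 5 kb, 211 from 20 kb, and 3783 with WT peaks joined up to 3000 bp apart. The share of base pairs kept was 84.1%, and it was 76% from 5 kb, 92.3% from 20 kb, 89.8% with IKDN peaks extended by 1000 bp, and 56.5% with WT peaks joined, which adds bases that no WT peak covers. The lost domains numbered 71, and 116 with lost set under 25% kept. They numbered 49 with 0 bp kept, 80 with the top-scored 50% of IKDN peaks and 67 without chromosome 18. Gain of H3K27ac in lost domains was 43.7%, and 21.1% where a peak in IKDN with none in WT was asked for. Gain of H3K36me3 was 16.9%, and 28.2% with at least 500 bp more and 2 times the WT length. Among domains at or above the median WT score per kb 15 were lost, with gains of 66.7% for H3K27ac, 73.3% for RNAPII and 40% for H3K36me3. Equal numbers of mark peaks in both lists gave 42.3% for H3K27ac, 39.4% for RNAPII and 16.9% for H3K36me3. For MED1, whose lists differ most in number, they gave 35.2%, against 42.3%, and a ratio on lost bases of 8.64, against 11.2. On lost bases the IKDN to WT ratio was 4 for H3K27ac, 18.6 for MED1 and 121 for H3K36me3 with the top-scored 50% of each list. A peak in IKDN with none in WT gave 19.7% for H3K4me1, 11.3% for H3K4me2 and 2.82% for H3K4me3. With equal numbers of factor peaks new IRF4 peaks lay in 23.9% of lost domains, against 40.8%, and new ETS1 peaks in 30.6%, against 41.9%. The settings without chromosome 18, with equal factor peaks, for the ratios on lost bases and by WT score were chosen after seeing the data. The cause of these moves was not tested.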

Other observations

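Partly kept domains held several genes with large gains, named here after their values were seen. Grtp1, a Rab GTPase-activating protein gene, had 11.7 kb of H3K27ac in IKDN and 3.17 kb in WT cells in a domain 14.2% kept, and RNAPII of 5.52 and 0.5 kb. The metallothionein genes Mt1 and Mt2, which bind zinc and copper, shared a domain of 21.4 kb (32.9% kept) with 6.09 and 0 kb of H3K27ac and 9.8 and 1.09 kb of RNAPII. Pdgfa, a platelet-derived growth factor ligand gene (22.4% kept), had 5.66 and 1.82 kb of H3K27ac and 7.06 and 0 kb of RNAPII. Dmpk, the myotonic dystrophy kinase gene (48.7% kept), had 11.8 and 0 kb of H3K36me3. Pax8 (22.3% kept) had 5.02 and 0 kb of H3K27ac and no RNAPII in either genotype.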
